A study of Homo sapiens with 6 samples.

Results

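Aminoacyl-tRNA synthetases attach amino acids to their tRNAs before translation. The 36 genes described here encode 20 cytosolic and 16 mitochondrial synthetases. They were chosen by function, and the measured LEF1 siRNA minus scrambled siRNA differences of these arrays were already known when the set was proposed. All counts and p-values for them are therefore a description of these 6 arrays and support nothing further. Probe sets that the platform annotation gives to 1 member alone covered 33 of the 36 genes, among 19775 genes measured. These were 18 cytosolic genes with 36 probe sets and 15 mitochondrial genes with 33 probe sets. MARS1, QARS1 and TARS2 had only probe sets annotated to a second gene as well, so they were not analysed here. Each gene is represented by its probe set with the highest mean over the 6 arrays, called the brightest, and further probe sets are given where they differ.

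The cells were BL2, a long-established line derived from a human Burkitt lymphoma, and they received a pool of 4 siRNAs against LEF1 (3 arrays) or scrambled siRNA (3 arrays). The labels give 3 batches, and every batch pairs 1 LEF1 siRNA array with 1 scrambled siRNA array. They name no further genotype or treatment. LEF1 is a DNA-binding partner of beta-catenin, and the comparison asks which transcripts differ once it is lowered. Values are log2 expression, differences are LEF1 siRNA minus scrambled siRNA on the log2 scale, errors are SDs or, where written, standard errors (SE) of the fit, and rose and fell mean an adjusted p under 0.05 over 54613 probe sets.

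Cytosolic synthetases charge the tRNAs used by ribosomes in the cytoplasm. Several of them are held together with the scaffold proteins AIMP1, AIMP2 and EEF1E1 in the multi-tRNA synthetase complex. Mitochondrial synthetases are encoded by separate nuclear genes and are imported, except that GARS1 and KARS1 each supply the enzyme of both compartments. When a charged tRNA is lacking, the uncharged tRNA activates the kinase GCN2, encoded by EIF2AK4. GCN2 phosphorylates eIF2-alpha, which raises translation of the transcription factor ATF4, and ATF4 is known to induce many cytosolic synthetase genes.

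LEF1 itself read 8.21, 8.09 and 8.67 with LEF1 siRNA in batches 1, 2 and 3, against 11.09, 10.58 and 11.45 with scrambled siRNA at its brightest probe set, a difference of -2.71 that left 15.2% of the signal. Its limma adjusted p was 0.0213 without block and 7.46e-11 with batch as block. The other LEF1 probe sets fell by 1.84 (adjusted p = 0.00418 without block) and by 0.30 (0.00695 with batch as block, 0.284 without). Without block the call at the brightest was lost when any 1 of 4 arrays was left out (adjusted p = 0.101 without LEF1 siRNA replicate 1, 0.241 without LEF1 siRNA replicate 2, 0.106 without scrambled siRNA replicate 1 and 0.0771 without scrambled siRNA replicate 3). B cell markers were high in both groups. The 7 measured of 8 B cell markers lay between 10.16 and 13.73 with LEF1 siRNA and between 10.59 and 13.55 with scrambled siRNA. The 4 T and NK cell markers lay between 6.65 and 7.10 with LEF1 siRNA and between 6.59 and 7.09 with scrambled siRNA, near the median of 6.91 of all values. The 3 myeloid markers lay at or below 6.81 in both groups, and epithelial and fibroblast markers reached 8.05 with LEF1 siRNA and 8.02 with scrambled siRNA, at COL1A1. Since RNA was taken from whole cultures, fewer cells and less RNA per cell cannot be told apart.

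Among the 69 synthetase probe sets, 1 of the 2 for TARS3 showed the largest difference. TARS3 encodes a cytosolic threonyl-tRNA synthetase closely related to TARS1. At the probe set with the lower mean it read 8.21, 8.29 and 8.27 with LEF1 siRNA, against 7.22, 7.20 and 7.03 with scrambled siRNA. The groups were far apart and did not overlap, with batch differences of 0.99, 1.10 and 1.24. The means were 8.26 ± 0.04 with LEF1 siRNA and 7.15 ± 0.10 with scrambled siRNA (SD, n = 3 each). The difference was 1.11 (SE 0.0667 in the fit without block), or 2.16-fold. It rose in both fits (limma adjusted p = 0.00427 without block and 6.15e-07 with batch as block). Without block the call was lost when LEF1 siRNA replicate 2 was left out (adjusted p = 0.0884), while with batch as block it remained without each batch in turn.

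The brighter TARS3 probe set did not pass in either fit. It read 7.94, 7.93 and 7.97 with LEF1 siRNA and 7.90, 7.92 and 7.88 with scrambled siRNA. The difference was 0.05 with a 95% interval of -0.07 to 0.17 in the fit with batch as block (limma adjusted p = 0.780), and it turned to -0.0069 after quantile normalization. With poly-A spike-in scaling, which takes the median of all genes to -0.10, it read -0.07. The interval excludes a rise like that of the other probe set. The name of the brighter probe set carries an x, by which the array maker marks probes that may also match other transcripts. What the 2 probe sets each detect was not tested. TARS1, the main cytosolic threonyl-tRNA synthetase, was lower with LEF1 siRNA, as given further on.

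**Figure D1:**
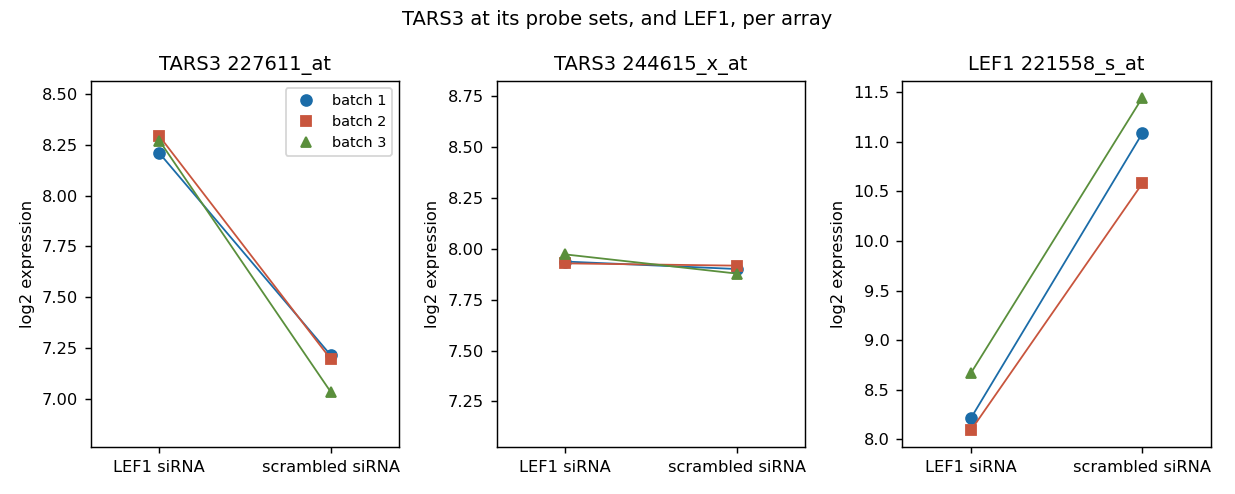
Log2 expression per array (y axis) of both TARS3 probe sets and of the brightest LEF1 probe set, with LEF1 siRNA left of scrambled siRNA and a line joining the 2 arrays of a batch. The dimmer TARS3 probe set lies between 8.21 and 8.29 with LEF1 siRNA and between 7.03 and 7.22 with scrambled siRNA, while the brighter one stays between 7.88 and 7.97 in all 6 arrays.

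Cytosolic synthetases other than TARS3 were mostly lower with LEF1 siRNA or close to 0. At the brightest probe sets, 3 of 18 cytosolic genes fell and 0 rose with batch as block (limma adjusted p under 0.05). Over all genes measured the same fit called 1.70% lower and 6.73% higher. The 3 genes were GARS1, SARS1 and TARS1. The median difference of the 18 genes was -0.11, with medians of -0.06, -0.14 and -0.05 in batches 1, 2 and 3, against a median of 0.02 over all genes. Relative to the median of all genes, the cytosolic median was -0.126 as deposited and lay between -0.126 and -0.0903 under the 4 other scalings. Of the 18 genes 9 were lower in all 3 batches and 1 was higher in all 3, against 13.7% and 26.0% of all genes. All genes include dim ones, while 0 synthetase genes had a brightest probe set below the median of all values. With dim probe sets left out, the fit with batch as block called 2.92% of 12630 genes lower and 11.2% higher. It then called 4 cytosolic genes lower. Shares for genes as bright as the cytosolic ones were not computed, and they need not match those of all genes. Between KARS1 and IARS1 in brightness more genes fell, as TFRC (-0.316) and RANBP1 (-0.362) did, than rose, as UCP2 (0.376) did. Between IARS1 and GARS1 more rose than fell. Whether genes of like brightness share the lower cytosolic median was not tested. Without block 0 of 33 synthetase genes passed at the brightest probe set (limma; 2 had an unadjusted p under 0.05), where 0.0253% of all genes did. Without batch 2, the fit with batch as block also called 0, with adjusted p of 0.0526 for GARS1, 0.0635 for SARS1 and 0.0545 for TARS1 and a cytosolic median of -0.04.

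**Figure D2:**
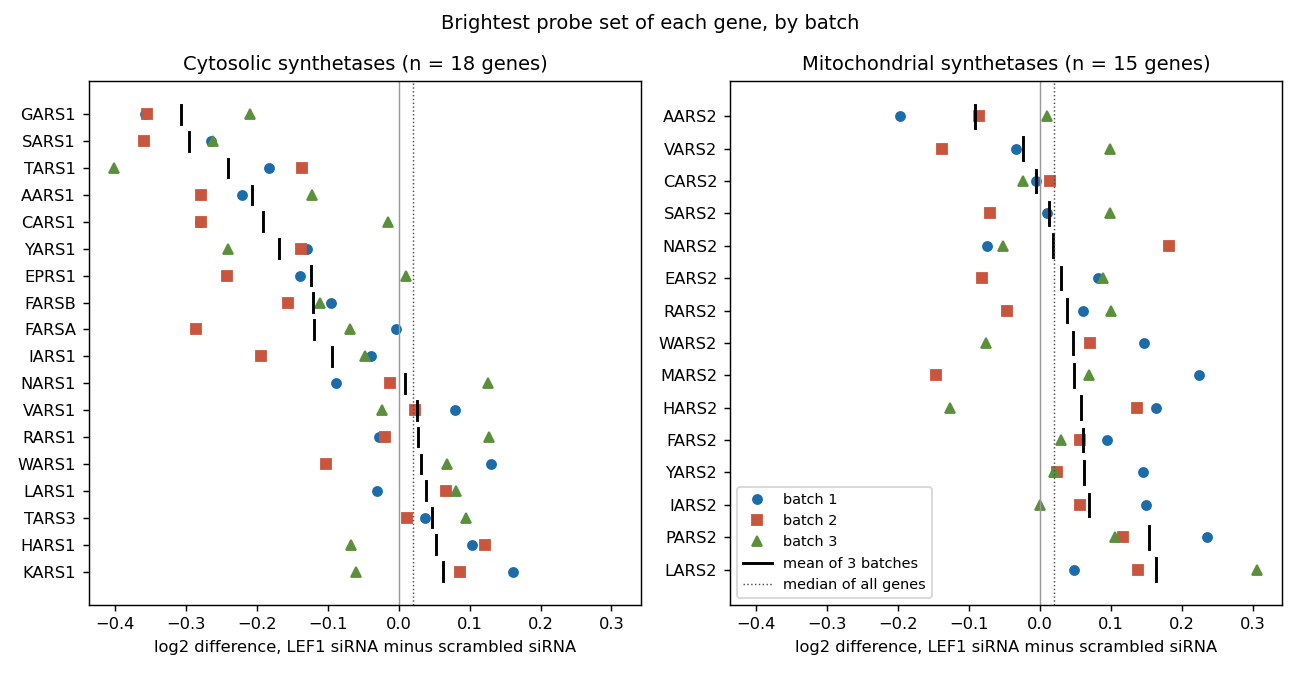
Difference of each synthetase gene at its brightest probe set (x axis, log2, LEF1 siRNA minus scrambled siRNA) in 3 batches, with bars for the mean and a dotted line for the median of all genes at 0.02. Cytosolic genes run down to -0.31 at GARS1, while mitochondrial genes lie between -0.09 and 0.16.

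GARS1, the glycyl-tRNA synthetase of cytosol and mitochondria, read 11.66, 11.60 and 12.09 with LEF1 siRNA, against 12.02, 11.95 and 12.30 with scrambled siRNA. The groups overlapped across batches, yet within each batch LEF1 siRNA was lower, with differences of -0.36, -0.36 and -0.21. GARS1 fell by 0.31 with batch as block (SE 0.0587, limma adjusted p = 0.00614), and its adjusted p was 0.668 without block. SARS1, the seryl-tRNA synthetase of the cytosol, read 10.83, 10.82 and 11.08 with LEF1 siRNA and 11.09, 11.18 and 11.34 with scrambled siRNA. All 3 LEF1 siRNA arrays were below all scrambled siRNA arrays, the highest by a narrow margin. SARS1 fell by 0.30 (SE 0.0570, limma adjusted p = 0.00651 with batch as block and 0.420 without). Its dimmer probe set differed by -0.15 (adjusted p = 0.153 with batch as block).

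TARS1 read 11.27, 11.26 and 11.29 with LEF1 siRNA and 11.45, 11.40 and 11.69 with scrambled siRNA. The groups did not overlap, and batch 3 had the widest gap, with differences of -0.18, -0.14 and -0.40. TARS1 fell by 0.24 (SE 0.0637, limma adjusted p = 0.0383 with batch as block and 0.459 without). That call was also lost without batch 3 (adjusted p = 0.264, difference -0.16) and with trend and robust eBayes settings (0.0758). AARS1, the alanyl-tRNA synthetase, lay just outside the threshold. It read 10.27, 10.34 and 10.62 with LEF1 siRNA and 10.49, 10.62 and 10.74 with scrambled siRNA, with batch differences of -0.22, -0.28 and -0.12 and overlapping groups (limma adjusted p = 0.0514 with batch as block). It passed under each of the 4 other scalings, when dim probe sets were left out (0.0451) and without batch 3 (0.0259). It did not pass without batch 1 (0.127), without batch 2 (0.306) or with trend and robust eBayes settings (0.104).

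Counted over probe sets rather than genes, 7 of 36 cytosolic probe sets fell and 1, that of TARS3, rose with batch as block. The fit called 1.51% of all probe sets lower and 4.58% higher. Without block, the dimmer TARS3 probe set was the 1 call among all 69 synthetase probe sets, where 0.0183% of probe sets passed. The 4 falls not yet given were at further probe sets of EPRS1 and CARS1, whose brightest probe sets did not pass.

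EPRS1 encodes the bifunctional glutamyl- and prolyl-tRNA synthetase of the multi-tRNA synthetase complex. At its dimmest probe set it read 9.86, 9.59 and 9.77 with LEF1 siRNA and 10.27, 10.19 and 10.16 with scrambled siRNA, with no overlap between groups. The difference of -0.47 was the largest fall of any synthetase probe set (limma adjusted p = 0.000630 with batch as block, 0.137 without). At its middle probe set EPRS1 fell by 0.31 (adjusted p = 0.00832 with batch as block, 0.0957 without batch 2). At its brightest probe set it differed by -0.12, with -0.14, -0.24 and 0.01 in the 3 batches (adjusted p = 0.340). In each of the 3 batches the dimmest probe set had the lowest difference and the brightest the highest.

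CARS1, the cysteinyl-tRNA synthetase of the cytosol, was likewise uneven. At the third brightest of its 4 probe sets it read 8.27, 8.19 and 8.16 with LEF1 siRNA and 8.46, 8.71 and 8.47 with scrambled siRNA, and fell by 0.34 (limma adjusted p = 0.00674 with batch as block). At the next brighter one it fell by 0.28 (adjusted p = 0.00849). Both calls were lost without batch 2 (0.0845 and 0.0697). Its brightest probe set differed by -0.28, -0.28 and -0.01 in the 3 batches (adjusted p = 0.112), and the dimmest, at 6.43 with LEF1 siRNA and 6.47 with scrambled siRNA, lay below the median of all values.

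**Figure D3:**
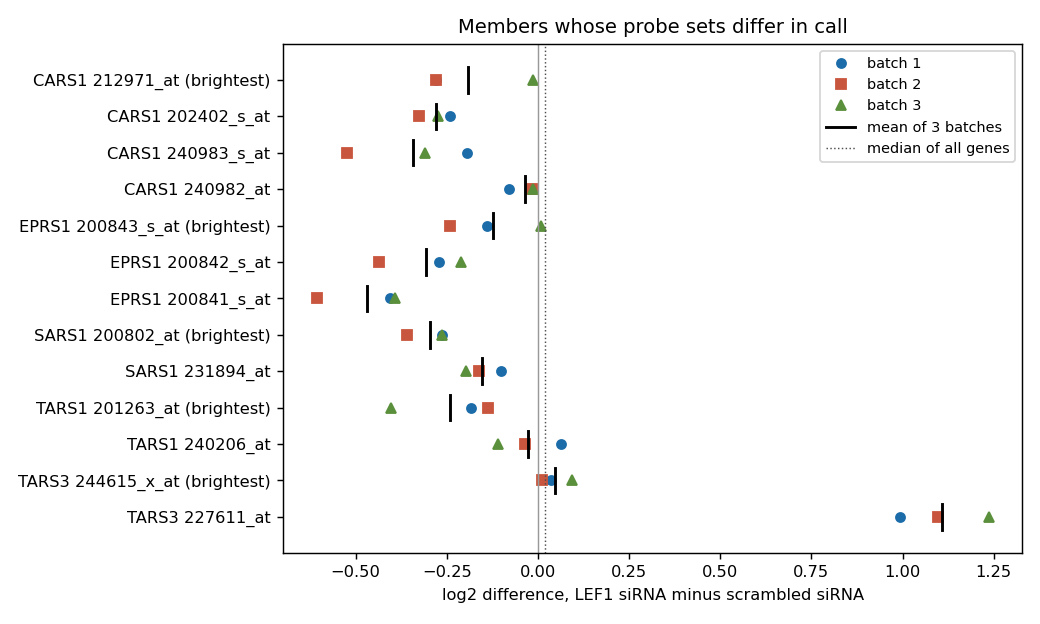
Difference in each batch (x axis, log2, LEF1 siRNA minus scrambled siRNA) at every probe set of CARS1, EPRS1, SARS1, TARS1 and TARS3, ordered within a gene from brightest to dimmest, with bars for the mean of 3 batches. EPRS1 runs from -0.12 at its brightest probe set to -0.47, and TARS3 from 0.05 to 1.11.

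The remaining cytosolic genes did not pass at any probe set. YARS1, the tyrosyl-tRNA synthetase, differed by -0.17 and was lower in each batch, with differences of -0.13, -0.14 and -0.24 (limma adjusted p = 0.111 with batch as block). FARSB and FARSA, which encode the subunits of the phenylalanyl-tRNA synthetase, differed by -0.12 each, and IARS1, the isoleucyl enzyme, by -0.09. NARS1, VARS1, RARS1, WARS1, LARS1, HARS1 and KARS1 lay between 0.01 and 0.06 at their brightest probe sets. KARS1, the lysyl-tRNA synthetase of both compartments, had the highest of these, with batch differences of 0.16, 0.09 and -0.06 that do not share a sign. The dimmer WARS1 probe set differed by -0.16, with -0.10, -0.25 and -0.15 in the 3 batches (limma adjusted p = 0.133 with batch as block). Dimmer LARS1 probe sets differed by 0.12, 0.135 and -0.13, and a dimmer FARSB probe set by 0.13.

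Membership in the multi-tRNA synthetase complex was not used to choose the genes, but it was compared here after the values had been seen and has no test. The 5 measured synthetases of the complex, EPRS1, IARS1, KARS1, LARS1 and RARS1, had a median difference of 0.03 at the brightest probe sets, and 0 of 5 fell. The 13 cytosolic genes outside it had a median of -0.12, and 3 of 13 fell. The share of all genes called lower was 1.70%, and with so few genes nothing is read from these counts. Divided by the structural class of the catalytic domain, the 10 class II genes had a median of -0.12 and held the 3 falls, while the 8 class I genes had a median of -0.03. EPRS1, which carries a domain of each class and was counted as class I, and CARS1 of class I fell at further probe sets, so neither division separates the calls over all probe sets.

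Mitochondrial synthetases had no call in either direction as deposited. Of 15 genes 0 passed with batch as block (2 had an unadjusted p under 0.05), as did 0 of their 33 probe sets, in limma's fits with and without block. Over all genes the fit with batch as block called 1.70% lower and 6.73% higher, and over all probe sets 1.51% and 4.58%, so that few or no calls in 15 genes is near the background. With poly-A spike-in scaling 1 gene, AARS2, fell, by 0.21, where 13.9% of all genes were called lower. The median difference was 0.05, with medians of 0.08, 0.02 and 0.03 in batches 1, 2 and 3. Relative to the median of all genes it was 0.0274 as deposited, 0.0275 with poly-A spike-ins, -0.0037 after quantile normalization and -0.001 after cyclic loess, so its sign depends on the scaling. At the brightest probe sets, LARS2, the mitochondrial leucyl-tRNA synthetase, had the highest difference, 0.16. It read 9.03, 9.21 and 9.39 with LEF1 siRNA and 8.98, 9.07 and 9.08 with scrambled siRNA, so that batches differed by 0.05, 0.14 and 0.31 (limma adjusted p = 0.171). PARS2, the prolyl enzyme, differed by 0.15 and was higher in each batch, by 0.24, 0.12 and 0.11 (adjusted p = 0.164). YARS2 and FARS2 were also higher in each batch, by 0.06 in the mean.

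AARS2, the mitochondrial alanyl-tRNA synthetase, was the lowest at -0.09, followed by VARS2 at -0.02 and CARS2 at -0.01. IARS2, HARS2, MARS2, WARS2, RARS2, EARS2, NARS2 and SARS2 lay between 0.01 and 0.07. A dimmer EARS2 probe set differed by 0.21, with 0.24, 0.28 and 0.11 in the 3 batches (limma adjusted p = 0.0534 with batch as block). A dimmer CARS2 probe set, near the median of all values, differed by 0.19 (adjusted p = 0.0972). The other probe sets of EARS2 lay between -0.0043 and 0.04, and those of CARS2 between -0.07 and -0.01. In the fit with batch as block the 95% intervals of the 15 brightest probe sets lay between -0.22 and 0.30 on the deposited scale. Of the 15 genes 4 were higher in all batches and 0 were lower in all, against 26.0% and 13.7% of all genes, dim ones included. The difference between cytosolic and mitochondrial medians was not tested, because the genes were grouped with the values known.

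**Figure D4:**
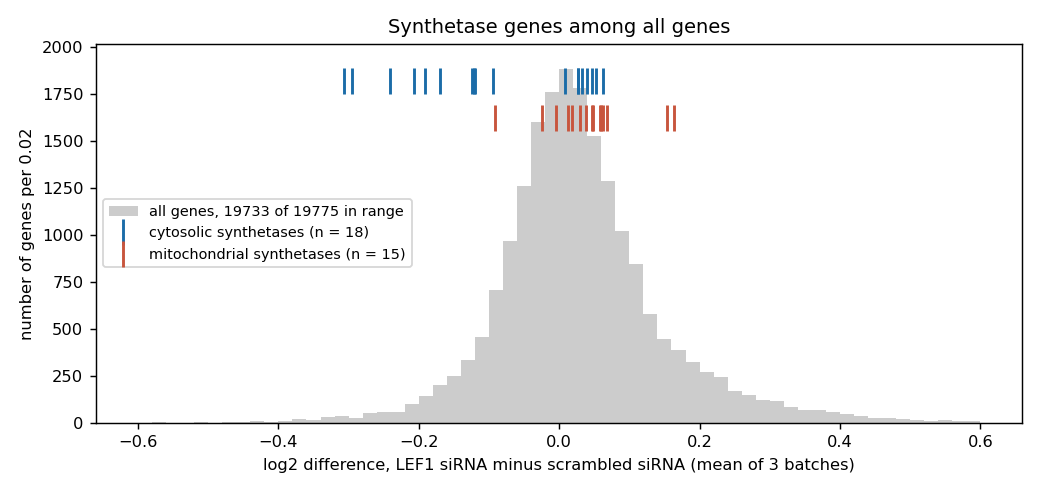
Number of genes (y axis) by difference at the brightest probe set (x axis, log2, LEF1 siRNA minus scrambled siRNA, mean of 3 batches), with ticks for the 18 cytosolic and 15 mitochondrial synthetases above the histogram. The 15 mitochondrial ticks lie within the bulk, while the cytosolic ticks reach -0.31 on the lower flank.

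A known promoter element was searched for near the starts of the synthetase genes. Whether it bears on their differences was not tested. The letters TGATGNAA are the core of the C/EBP-ATF response element, to which ATF4 binds with C/EBP partners. They were searched on both strands of RefSeq windows of 300 bases, from 250 before to 50 after each annotated start (GRCh38.p14). Windows existed for 30 of the 36 genes. LARS1, TARS3, VARS1, YARS1, AARS2 and VARS2 had none. At least 1 window held the letters for 7 of 16 cytosolic genes (43.8%) and for 1 of 14 mitochondrial genes (7.14%), against 4.46% of 27305 genes with a window. In 6 of the 7 cytosolic genes the match began within 50 bases of the start. It began at -187 from the start in AARS1 and at -197 in YARS2, the mitochondrial gene. The matches of all 8 genes are shown in their 30-base surroundings, on the strand that reads the motif, with the motif in capitals. They set genes that fell beside those that did not, and MARS1 was not measured.
AARS1, chr16:70289675-70289704, plus strand: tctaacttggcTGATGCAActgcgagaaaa
CARS1, chr11:3057407-3057436, plus strand: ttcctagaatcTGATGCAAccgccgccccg
GARS1, chr7:30594834-30594863, minus strand: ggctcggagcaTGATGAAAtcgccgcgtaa
IARS1, chr9:92293692-92293721, plus strand: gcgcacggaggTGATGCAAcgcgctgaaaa
MARS1, chr12:57488053-57488082, minus strand: gaatccctcgcTGATGCAAccggaaccggc
NARS1, chr18:57621804-57621833, minus strand: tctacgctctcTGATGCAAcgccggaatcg
TARS1, chr5:33440956-33440985, minus strand: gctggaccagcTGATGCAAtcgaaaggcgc
YARS2, chr12:32756076-32756105, minus strand: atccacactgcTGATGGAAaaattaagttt

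Of the genes that fell, GARS1 and TARS1 held the motif in 1 window, as did CARS1, which fell at further probe sets. GARS1, TARS1 and CARS1 each also had a window, at another annotated start, without these letters. SARS1 and EPRS1 did not hold them in their windows. AARS1, IARS1 and NARS1 held the motif with differences of -0.21, -0.09 and 0.01. The 6 measured cytosolic genes with the motif had a median difference of -0.20, from -0.31 to 0.01, and the 8 measured ones with a window but no match had a median of -0.05, from -0.30 to 0.06. These medians were compared after the values had been seen and have no test. HARS1 and HARS2, the cytosolic and mitochondrial histidyl-tRNA synthetase genes, run in opposite directions from starts so close that their windows share 184 bases, and they differed by 0.05 and 0.06.

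The other genes of the pathway were a list of 35 drawn up by role, with earlier results of these data known. Counts for them are therefore a description too. With batch as block 7 of the 29 measured fell and 3 rose, beside 1.70% of all genes called lower and 6.73% called higher. The share of rises is near that of all genes, and nothing is read from it. The split was 8 lower and 1 higher after quantile normalization, 14 and 1 with poly-A spike-ins, and 7 and 1 without batch 2. All 7 falls on the deposited scale were in the ATF4 axis. ATF4 itself fell by 0.36, with batch differences of -0.35, -0.37 and -0.37 (limma adjusted p = 0.00162 with batch as block, 0.312 without). PSAT1, ASNS and PHGDH, enzymes of serine and asparagine synthesis, fell by 0.43, 0.37 and 0.34. A further PSAT1 probe set fell by 0.65 and also passed without block (limma adjusted p = 0.0338). The amino acid transporter genes SLC3A2 and SLC7A11 fell by 0.34 and 0.33, and the SLC7A11 call was lost without batch 2 (adjusted p = 0.0949). CHAC1 fell by 0.36, but its batch differences of -0.48, -0.01 and -0.60 were uneven. TRIB3, SESN2 and DDIT3 did not pass on the deposited scale, at -0.14, -0.19 and 0.15. SESN2 was called lower after quantile normalization (limma adjusted p = 0.0418 with batch as block) and cyclic loess (0.0465). It was also called lower with poly-A spike-ins (0.00746) and without batch 2 (0.0356). TRIB3 was called lower with poly-A spike-ins (0.0125). The axis had a median difference of -0.34 over 10 genes, and it was lower in 9 of 10.

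EIF2AK4, which encodes the uncharged tRNA sensor GCN2, rose. It averaged 10.04 with LEF1 siRNA and 9.44 with scrambled siRNA, and its batch differences were 0.50, 0.76 and 0.54. The mean difference was 0.60 (limma adjusted p = 0.000167 with batch as block, 0.139 without). Its dimmer probe set, below the median of all values, differed by -0.0027. GCN1, the activator of GCN2, and EIF2S1, its substrate eIF2-alpha, did not pass, at -0.03 and -0.10.

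Genes of the elongation and tRNA quality steps mostly did not pass. DTD2, a deacylase that removes mischarged amino acids from tRNA, rose by 0.31, with batch differences of 0.33, 0.53 and 0.06 (limma adjusted p = 0.0274 with batch as block, 0.545 without). The DTD2 call was lost without batch 2 (0.283), after quantile normalization (0.0514) and with poly-A spike-ins (0.0907). GFM1, a mitochondrial elongation factor, rose by 0.22 at its brightest probe set and by 0.27 at another, while a further one differed by -0.10. At the brightest its limma adjusted p was 0.0440 with batch as block and 0.843 without, and the call was lost under each of the 4 other scalings (0.0644 to 0.257), with trend and robust eBayes settings (0.0905), without batch 2 (0.157) and without batch 3 (0.221). Of the scaffold genes only AIMP1 was measured, at -0.01. The genes of mitochondrial glutaminyl-tRNA amidation and methionyl-tRNA formylation, GATB, GATC, QRSL1 and MTFMT, lay between -0.08 and 0.11, and 0 of 4 passed. The cytosolic elongation factor genes EEF1A1, EEF1D and EEF2 lay between -0.12 and 0.05 at their brightest probe sets. The 2 dimmest EEF1A1 probe sets rose by 0.36 and 0.39 with batch as block (limma adjusted p = 0.00527 and 0.00438). Without block they did not pass (0.632 and 0.439). The other further EEF1A1 probe sets, which are brighter, lay between -0.06 and 0.01.

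**Figure D5:**
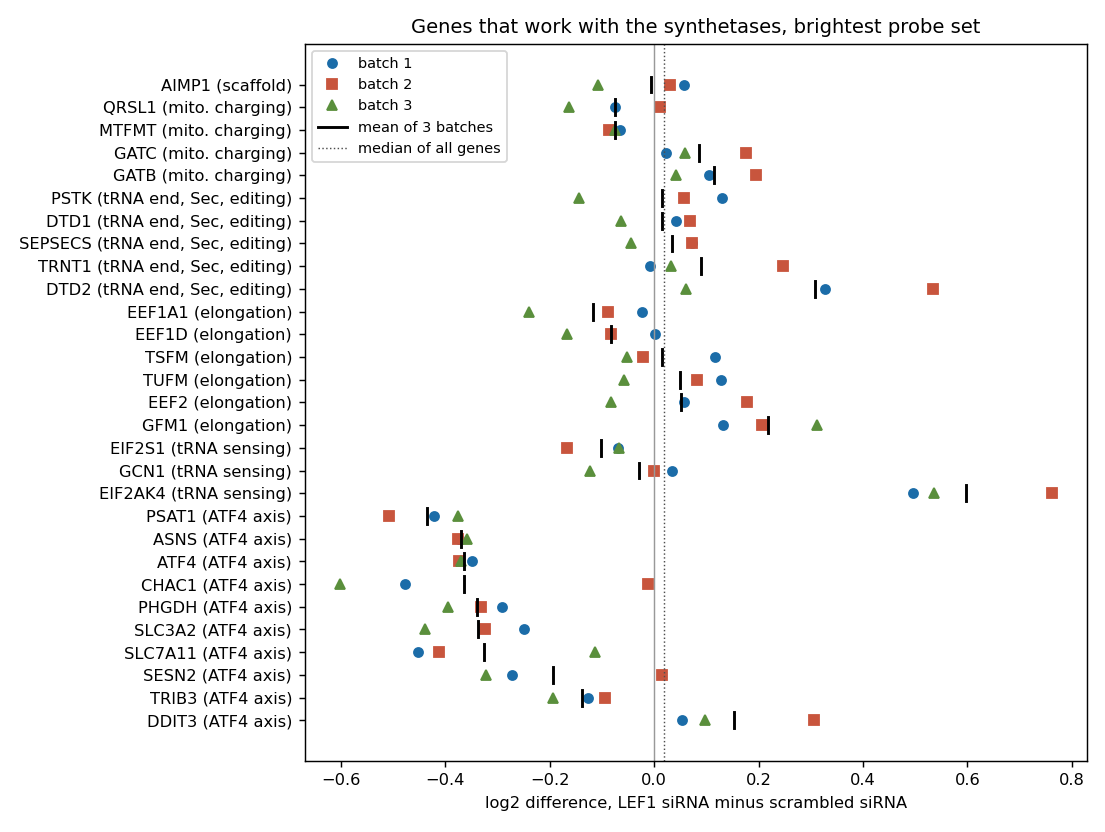
Difference in each batch (x axis, log2, LEF1 siRNA minus scrambled siRNA) of 29 genes that work with the synthetases, at the brightest probe set and grouped by role, with bars for the mean. The ATF4 axis lies lower than 0 in 9 of 10 genes, and EIF2AK4 stands at 0.60.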

How the data were processed

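The values deposited by the authors are log2 expression, 1 for each probe set on each array. How background correction, normalization and summarisation were done is not given in the sources used here. The log2 scale was read from their range, 5.45 to 14.95. Medians of the 6 arrays lay between 6.89 and 6.96. The number of arrays limits the precision. Affymetrix control probe sets were left out, which left 54613. Probe sets were named from the platform annotation, with symbols matched to RefSeq genes by gene ID.

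limma 3.58.1 (R 4.3.3) was run on all probe sets, with Benjamini-Hochberg adjustment over the whole table, without block and with batch as block. The labels' batch pairs the arrays of both groups. Deviations from group means correlated at 0.477, 0.493 and 0.621 within batches, across probe sets. The fit without block had 4 residual and 4.07 prior degrees of freedom, and that with batch as block 2 and 12. Whether replicates came from separate cultures is not stated beyond the design text's word biological, so p-values speak for these arrays only. With batch as block, the error of each probe set was drawn largely from the spread of all probe sets. ASNS and CHAC1 had SEs of 0.0557 and 0.0878 in that fit, while the SDs of their batch differences were 0.0096 and 0.3113.

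Both fits were tested on simulated arrays of 54613 probe sets, 100 each changed by 0.3, 0.5 and 1. Without block 2%, 63% and 96% were recovered, with 0 false calls among 161. With batch as block 90%, 100% and 100% were recovered, with 40 false calls among 330, more than the nominal rate. The falls of all synthetase probe sets rest on this second fit, so some of them may be false calls.

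The members, gene lists and tests were chosen with earlier results of these data known. Genes named are LEF1 and TARS3 at every probe set, members passing in either fit, the 3 largest rises and falls of each class, members passing at further probe sets, and passing pathway genes. Other members are given by value or range. Alternatives covered block, 4 scalings, dim probe sets, eBayes settings, probe set choice, threshold and left-out arrays. The planned pseudocount did not apply to log2 values.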

Additional observations from a re-analysis of the deposited data

How the results depend on the processing

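With the batch number as replicate block, member genes called went from 0 without block to 3, all lower. Poly-A spike-in scaling shifts all probe sets of an array alike, and it moved the median of all genes from 0.02 to -0.10. It gave 11 calls with batch as block, all lower (10 cytosolic, 1 mitochondrial), where 13.9% of all genes were called lower, and by that shift a cytosolic median of -0.2263 and a mitochondrial one of -0.0729. The mitochondrial median was -0.0043 after quantile normalization and 0.0026 after cyclic loess. The brightest TARS3 probe set, at 0.05, turned to -0.0069 after quantile normalization, and the same shift put it at -0.0724 with poly-A spike-ins. Taking the most variable probe set per gene gave 6 calls, 5 lower and TARS3 higher. At an adjusted p of 0.01, pathway calls dropped to 6. Pathway calls by direction, 7 lower and 3 higher, became 14 and 1 with poly-A spike-ins, 8 and 1 after quantile normalization and 7 and 1 without batch 2, with EIF2AK4 the gene that stayed higher. Leaving out 1 array gave LEF1 differences of -2.94 to -2.51 and differences of 1.05 to 1.14 at the dimmer TARS3 probe set. Leaving out 1 batch gave 0 to 4 member calls, a cytosolic median of -0.1213 to -0.0398 and a mitochondrial median of 0.0142 to 0.0616. The call of every synthetase gene rests on the fit with batch as block, except that of the dimmer TARS3 probe set. Apart from the poly-A shift, the cause of these differences was not tested. In the other 63 recomputations of these results the direction and call were kept, the total count stayed within 1.5 times, or the median moved by less than the spread between batches. The dimmest CARS1 and TARS1 probe sets lie below the median of all values, and what they can resolve was not tested.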
